A study of Homo sapiens with 15 samples.

Results

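Human mitochondrial ribosomal protein genes carry the symbols MRPL, for the large subunit, and MRPS, for the small subunit. Every intron whose gene name, taken singly or from a list of names, was MRPL or MRPS followed by a number and at most 1 letter from A to C was counted as a member intron. This gave 78 genes of the 11713 named in the data, and all 78 had introns listed for every clone. They held 471 of 111143 introns listed in any comparison, of which 410 of 83066 were listed in all 4. Of those 410 introns, 23 also carried the name of another gene, so that their reads cannot be given to one gene. These included all 4 introns of MRPL12 and 7 of 10 of MRPL38.

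The groups were 4 clones labelled as deficient in bktRNA1, named KO-1 to KO-4, and the wild-type line (WT), each with 3 libraries of polyadenylated RNA. All were made from HCT116, a human colon cancer cell line grown in the same medium, and the 3 libraries of a group come from independent experiments. The labels say nothing more about bktRNA1, its level was not analysed here, and the genotypes rest on the labels. Each clone is a single isolate and WT is 1 line, so a p-value compares 1 isolate with 1 line and does not speak of bktRNA1 loss in general.

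Mitochondria keep a small genome of their own that encodes core subunits of the respiratory chain and of ATP synthase. The mitochondrial ribosome translates these messages: its ribosomal RNAs come from the mitochondrial genome, whereas all of its proteins are encoded in the nucleus, made in the cytosol and imported. Many of the proteins descend from bacterial ribosomal proteins, and others are found only in mitochondrial ribosomes. By current knowledge MRPS18A and MRPS30 sit in the large subunit despite their names, and MRPS36 belongs to the alpha-ketoglutarate dehydrogenase complex.

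Reads that join both exons across an intron (spliced reads) stood for the amount of mature message, and reads that run from an exon into the intron (retained reads) for RNA that still holds it. Over the introns listed in all comparisons, the libraries of KO-1 held 15006870 to 17739847 spliced reads, and those of the other clones and WT held 23609222 to 30732525. The KO-1 libraries were thus the shallowest, and their values carry the largest counting error. Members took 0.529% to 0.572% of the spliced reads in the KO-1 libraries, 0.564% to 0.575% in those of KO-2, 0.586% to 0.618% in those of KO-3 and 0.533% to 0.545% in those of KO-4, against 0.588% to 0.622% in WT. Of 7 markers of colon epithelium 5 were listed, EPCAM, KRT8, KRT18, KRT19 and CDX2, of 5 mesenchymal markers COL1A1 alone, and no marker of leukocytes (of 4) or endothelium (of 3) was. In bulk libraries, fewer cells that use a gene and less RNA per cell cannot be told apart.

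Members were well expressed. The level of a gene was taken as the median over its introns of spliced reads per 1000000 in the library, which does not grow with the length of the message. In WT the members' levels ran from 0.326 to 71.9 with a median of 14.4, against a median of 4.64 over the 9471 genes tested, and 82.5% of those genes lay below the members' median. The highest level was that of MRPL12, a protein of the flexible stalk that recruits translation factors, with 68.6 ± 4.9 in the KO-1 libraries, 72.5 ± 1.1 in those of KO-2, 75.8 ± 5.7 in those of KO-3 and 60.4 ± 0.93 in those of KO-4, against 71.9 ± 4.1 in WT (SD, n = 3 each). All 4 MRPL12 introns also name another gene, so these reads cannot be given to MRPL12 alone. The small-subunit members MRPS34, MRPS23 and MRPS21 followed with 41.5 ± 0.53, 40.4 ± 1.2 and 35.1 ± 3.6 in WT. The large-subunit member MRPL20 had 34.5 ± 1.3. MRPS34 and MRPS23, and likewise MRPS21 and MRPL20, did not differ beyond their spread. The order depends on the measure. On the intron with the most spliced reads, MRPS34, MRPS23, MRPS21 and MRPL20 stood at 43.3 ± 1.2, 49.5 ± 2.2, 52.5 ± 4.1 and 39.5 ± 2.1 in WT. At the other end, MRPL43, MRPS2, MRPS28, MRPS6 and MRPL55 had medians of 0.326 to 0.707 in WT, over 6 to 17 listed introns each, most of which hold few spliced reads. Counted on the intron with the most spliced reads alone, these genes stood at 28.0 ± 1.5, 23.5 ± 1.3, 19.0 ± 0.67, 12.4 ± 0.68 and 12.3 ± 1.1 spliced reads per 1000000 in WT (SD, n = 3 each).

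In KO-4 many more members were lower than higher. Spliced reads were scaled by library (median ratio), and a gene was called higher or lower where limma with a trend over 15 libraries gave a Benjamini-Hochberg adjusted p below 0.05. Of the 78 members 40 were lower and 1 was higher in KO-4, where 24.2% of all genes tested were lower and 24.5% higher. The median log2 fold change of the members was -0.17, and 71 of the 78 lay below 0. In the same KO-4 libraries the summed scaled spliced reads of the colon epithelial markers were 130928 to 137540, against 114191 to 128754 in WT, and those of COL1A1 were 223 to 278, against 135 to 196 in WT. Their part in the result was not tested. By library, the members' median stood at -0.16, -0.17 and -0.16 in KO-4, relative to the WT mean, and at 0.01, 0.06 and -0.06 in WT, so every KO-4 library lay below every WT library. By symbol, 18 of 29 MRPS members and 22 of 49 MRPL members were lower. Both bacterial-type and mitochondria-specific proteins were among them, with 15 of 30 and 8 of 21 in the large subunit and 10 of 16 and 7 of 10 in the small one. In these lists MRPS18A and MRPS30 count with the large subunit. Without the second WT library 28 members were lower in KO-4, with 4 of the 16 bacterial-type proteins of the small subunit.

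KO-1 and KO-2 went the same way with fewer members. In KO-1 21 members were lower and 3 higher, beside 12.5% and 13.7% of all genes, with a median log2 fold change of -0.08. The libraries were uneven: the members' median was -0.02, -0.06 and -0.17 in the 3 KO-1 libraries, which overlapped WT. Without the third KO-1 library 10 members were lower, and 11 without the second WT library. Counting only the intron with the most spliced reads in each gene left 8 lower in KO-1. In KO-2 16 members were lower and 4 higher, beside 21.1% and 21.9% of all genes, so the lower share was close to that of all genes. The members' median in KO-2 was -0.06, and -0.04, -0.04 and -0.09 by library, which overlapped WT.

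In KO-3 no member was lower. There 11 members were higher and none lower by limma, beside 15% and 15.6% of all genes, so the share of higher members was near that of all genes. At an unadjusted p below 0.05 14 members were higher and 2 lower in KO-3, beside 20.5% and 20.6% of all genes, and limma with precision weights (voom) called 12 higher and 1 lower. The summed epithelial markers were 168933 to 176806 in KO-3, against 114191 to 128754 in WT, and COL1A1 was 135 to 162, which overlapped WT. Their part in the result was not tested. In KO-1 and KO-2 both sums overlapped WT, at 117452 to 126203 and 119386 to 127133 for the epithelial markers. The members' median was 0.07, with 0.07, 0.09 and 0.07 in its libraries, but scaled by total spliced reads it was -0.0033 with 3 members higher and 5 lower, where the median of all genes was -0.07. Without the third WT library, or without the second KO-3 library, 6 members were higher. A test of the difference among the clones, limma on the same fit, called 64 of the 78 members, 82.1%, against 75.3% of all genes. All 4 comparisons share the WT libraries.

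**Figure D1:**
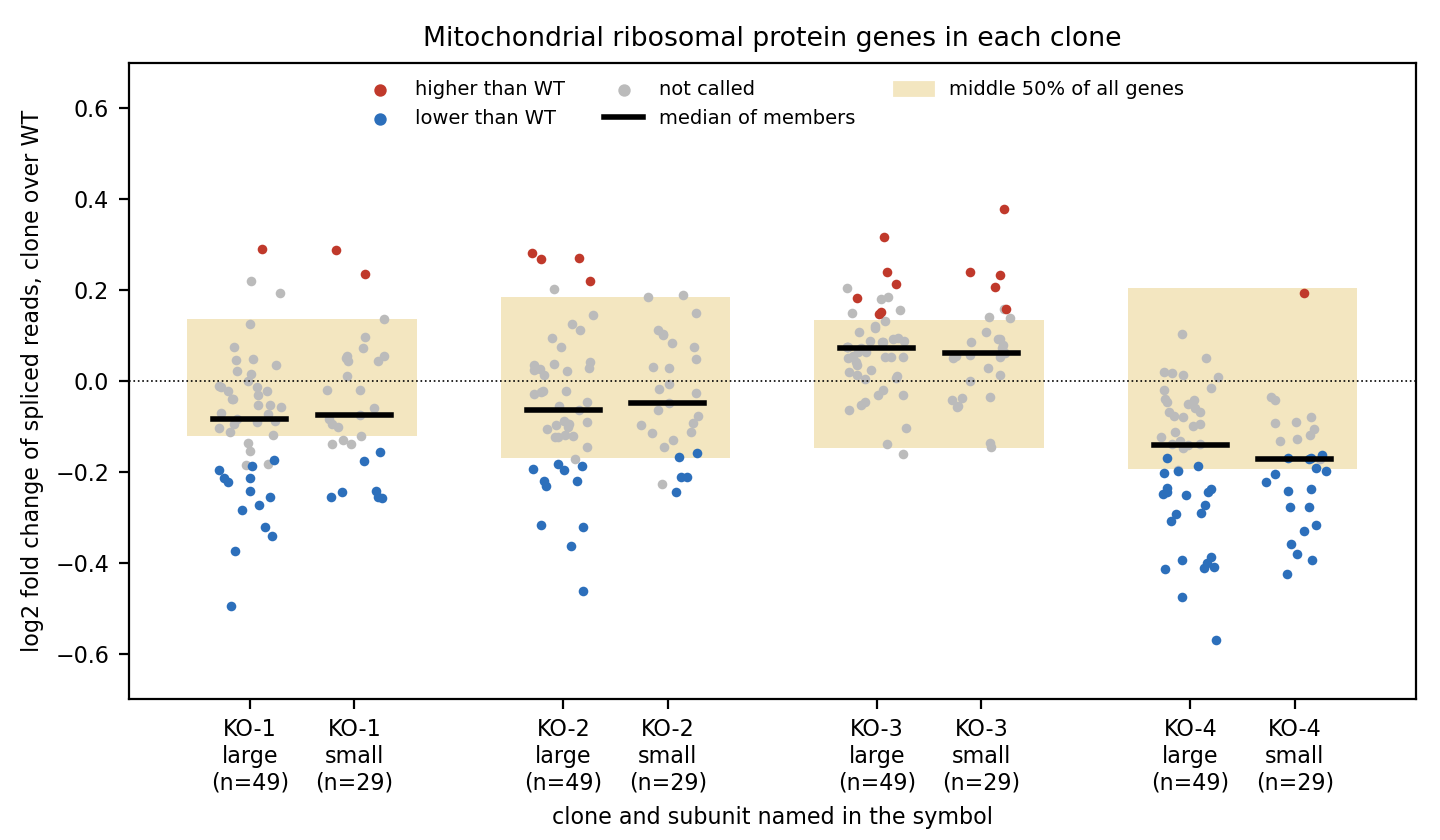
The log2 fold change of spliced reads (clone over WT) of each member is shown for the 49 MRPL and 29 MRPS genes in KO-1 to KO-4. Each point is 1 gene, in red if higher and blue if lower by limma at an adjusted p below 0.05, the black bars are medians, and the shaded bands hold the middle 50% of all genes tested. In KO-4 40 members are blue, most of them below the band, and in KO-3 none is.

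No member was lower in all 4 clones and none was higher in 3 or more. Genes lower in all 4 clones were rare over all genes too, so their absence does not set the members apart. Higher in 3 or 4 clones were 807 of 9471 genes, against none of the members. Lower in exactly 3, and in each case KO-1, KO-2 and KO-4, were 8 members: 6 of the large subunit and 2 of the small. Over all genes, 646 of 9471 were lower in 3 or 4 clones, 6.82%, against 10.3% of the members. These counts rest on WT libraries that the comparisons share, and counting the top intron alone left MRPL11 as the single member lower in 3 clones. In that setting 1.28% of the members were lower in 3 or 4 clones, against 2.69% of 8906 genes, so the order of the shares turned. The bases before the start of these 8 genes are shown because the genes moved alike, as the 100 bases upstream of the RefSeq start on GRCh38.p14, 5′ to 3′ on the strand of the gene. Capitals mark an ETS motif (CCGGAAG) or a GC box (GGGCGG) read on either strand.
MRPL11: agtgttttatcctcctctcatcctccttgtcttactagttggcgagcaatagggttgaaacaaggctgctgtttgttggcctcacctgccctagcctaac
MRPL19: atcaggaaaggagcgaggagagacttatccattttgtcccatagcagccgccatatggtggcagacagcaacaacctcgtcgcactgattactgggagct
MRPL3: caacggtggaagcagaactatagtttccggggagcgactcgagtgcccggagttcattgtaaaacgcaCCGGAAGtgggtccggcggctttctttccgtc
MRPL39: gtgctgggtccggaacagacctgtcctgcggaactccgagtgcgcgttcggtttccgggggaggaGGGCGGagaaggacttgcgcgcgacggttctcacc
MRPL45: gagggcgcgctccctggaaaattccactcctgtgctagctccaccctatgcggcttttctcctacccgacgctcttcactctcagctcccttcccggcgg
MRPL58: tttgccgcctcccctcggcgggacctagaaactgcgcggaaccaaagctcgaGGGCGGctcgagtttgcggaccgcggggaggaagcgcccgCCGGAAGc
MRPS15: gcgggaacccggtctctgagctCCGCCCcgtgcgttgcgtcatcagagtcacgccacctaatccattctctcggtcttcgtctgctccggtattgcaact
MRPS26: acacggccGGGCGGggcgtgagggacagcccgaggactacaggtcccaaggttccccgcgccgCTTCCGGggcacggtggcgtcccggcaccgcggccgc

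These stretches lie at chr11:66438849-66438948 on the minus strand for MRPL11, chr2:75646683-75646782 on the plus strand for MRPL19, chr3:131502972-131503071 on the minus strand for MRPL3, chr21:25607482-25607581 on the minus strand for MRPL39, chr17:38297068-38297167 on the plus strand for MRPL45, chr17:75012570-75012669 on the plus strand for MRPL58, chr1:36464385-36464484 on the minus strand for MRPS15 and chr20:3045952-3046051 on the plus strand for MRPS26. The ETS motif stands in those of MRPL3, MRPL58 and MRPS26, and the GC box in those of MRPL39, MRPL58, MRPS15 and MRPS26. Neither is found in the stretches of MRPL11, MRPL19 and MRPL45. Over the full 250 bases before the start, promoter windows were matched for 69 of the 78 members. Of these 33.3% held the ETS motif, against 8.82% of 27305 windows of all genes. NRF1 is a factor named for its part in genes of the respiratory chain, and its motif was in 11.6% of members and 5.53% of all windows. Motifs of YY1 (AANATGGC), the GC box and the E-box (CACGTG) were in 7.25%, 55.1% and 8.70% of members and in 3.91%, 42.3% and 6.49% of all. The CCAAT motif was in 27.5% and 33.0%, and the TATA box (TATAAA) in 2.90% and 11.1%. All were sought on both strands, and no motif contains another. The 27305 windows are of all genes, whether tested in the clones or not. The members' windows had a median GC content of 60.8%, against 58.0%, and a median of 20 CG pairs, against 11. The letters of the ETS, NRF1, GC box and E-box motifs contain CG, and the part of CG pairs in their shares was not tested. A motif match is a description of the letters and was not tied to the values in the clones.

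MRPL11, which forms the base of the stalk where translation factors bind, had 2654, 2429 and 2194 scaled spliced reads in the KO-1 libraries, 2237, 2070 and 2108 in those of KO-2, 3087, 3022 and 3114 in those of KO-3 and 2184, 2344 and 2165 in those of KO-4, against 2989, 3069 and 2781 in WT. The libraries of KO-1, KO-2 and KO-4 lay below every WT library, and those of KO-3 overlapped WT. Its log2 fold change was -0.28 ± 0.06 (SE) in KO-1, -0.46 ± 0.06 in KO-2 and, for KO-4, -0.40 ± 0.06 (limma adjusted p of 0.0017, 3.2e-06 and 1.6e-05). In KO-3 it was 0.06 ± 0.06 with an adjusted p of 0.48 by limma.

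MRPL19, a bacterial-type protein of the large subunit, had 1584, 1548 and 1456 in the KO-1 libraries, 1415, 1473 and 1404 in those of KO-2, 1781, 1652 and 1846 in those of KO-3 and 1108, 1203 and 1300 in those of KO-4, against 1732, 1855 and 1763 in WT. It showed the deepest fall of any member in KO-4, at -0.57 ± 0.06 on the log2 scale (SE, limma adjusted p = 2.1e-07), and lay 32.6% below WT there. Its KO-1 and KO-2 values were -0.22 ± 0.06 and -0.32 ± 0.06, with limma adjusted p of 0.014 and 0.00039. The top intron of MRPL19 alone gave -0.06 in KO-1 (not called) and -0.71 in KO-4.

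MRPL3 lines the region of the peptidyl transferase centre and was the most abundant of the 8. It had 6531, 6090 and 5375 in the KO-1 libraries, 5717, 5296 and 5646 in those of KO-2, 7280, 7336 and 6972 in those of KO-3 and 5480, 5423 and 5911 in those of KO-4, against 6945, 7127 and 6747 in WT. The 3 clones lay below WT by 13.8%, 20.0% and 19.3% (limma adjusted p = 0.0087, 0.00011 and 0.00014), and KO-3 overlapped WT.

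Among the mitochondria-specific proteins, MRPL39 had 1043, 992 and 958 in the KO-1 libraries, 916, 1038 and 864 in those of KO-2, 1114, 1189 and 1239 in those of KO-3 and 918, 854 and 948 in those of KO-4, against 1221, 1262 and 1136 in WT. The KO-1, KO-2 and KO-4 libraries lay below all of WT, and the log2 fold changes were -0.27 ± 0.07, -0.36 ± 0.07 and -0.41 ± 0.07 (SE, limma adjusted p = 0.0088, 0.0004 and 9.1e-05). MRPL45 helps to hold the ribosome at the inner membrane near the exit of the nascent chain. It had 2257, 2172 and 2171 in the KO-1 libraries, 2276, 2188 and 2095 in those of KO-2, 2796, 2486 and 2639 in those of KO-3 and 1878, 1865 and 2006 in those of KO-4, against 2474, 2422 and 2620 in WT. KO-4 stood lowest, at -0.39 ± 0.06 (limma adjusted p = 7.3e-06), beside -0.19 ± 0.06 in KO-1 and -0.20 ± 0.06 in KO-2.

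MRPL58, also known as ICT1, is a peptidyl-tRNA hydrolase that releases chains from stalled mitochondrial ribosomes. It averaged 1390 ± 86.6 in the KO-1 libraries, 1400 ± 23.4 in those of KO-2, 1592 ± 93.5 in those of KO-3 and 1386 ± 109 in those of KO-4, against 1647.5 ± 156 in WT (SD, n = 3 each). Its falls were alike in size, at -0.24 ± 0.07, -0.23 ± 0.07 and -0.25 ± 0.07 (SE, limma adjusted p = 0.018, 0.015 and 0.0081), and each KO-1, KO-2 and KO-4 library lay below each WT library.

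In the small subunit, MRPS15 averaged 3331 ± 216 in the KO-1 libraries, 3406 ± 32.2 in those of KO-2, 4344 ± 193 in those of KO-3 and 3523 ± 43.1 in those of KO-4, against 3946 ± 211 in WT (SD, n = 3 each). Its log2 fold change of 0.14 ± 0.05 in KO-3 missed the threshold (limma adjusted p = 0.054), while KO-1, KO-2 and KO-4 were lower by 15.6%, 13.6% and 10.6%. MRPS26, a mitochondria-specific protein, had 1860, 1660 and 1543 in the KO-1 libraries, 1651, 1794 and 1764 in those of KO-2, 1952, 2293 and 2190 in those of KO-3 and 1597, 1475 and 1630 in those of KO-4, against 1930, 2171 and 1935 in WT. It was lower in the 3 clones by 16.2%, 13.6% and 22.0% (limma adjusted p = 0.013, 0.023 and 0.00033). The first intron of MRPS26 is among those whose retention was called.

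**Figure D2:**
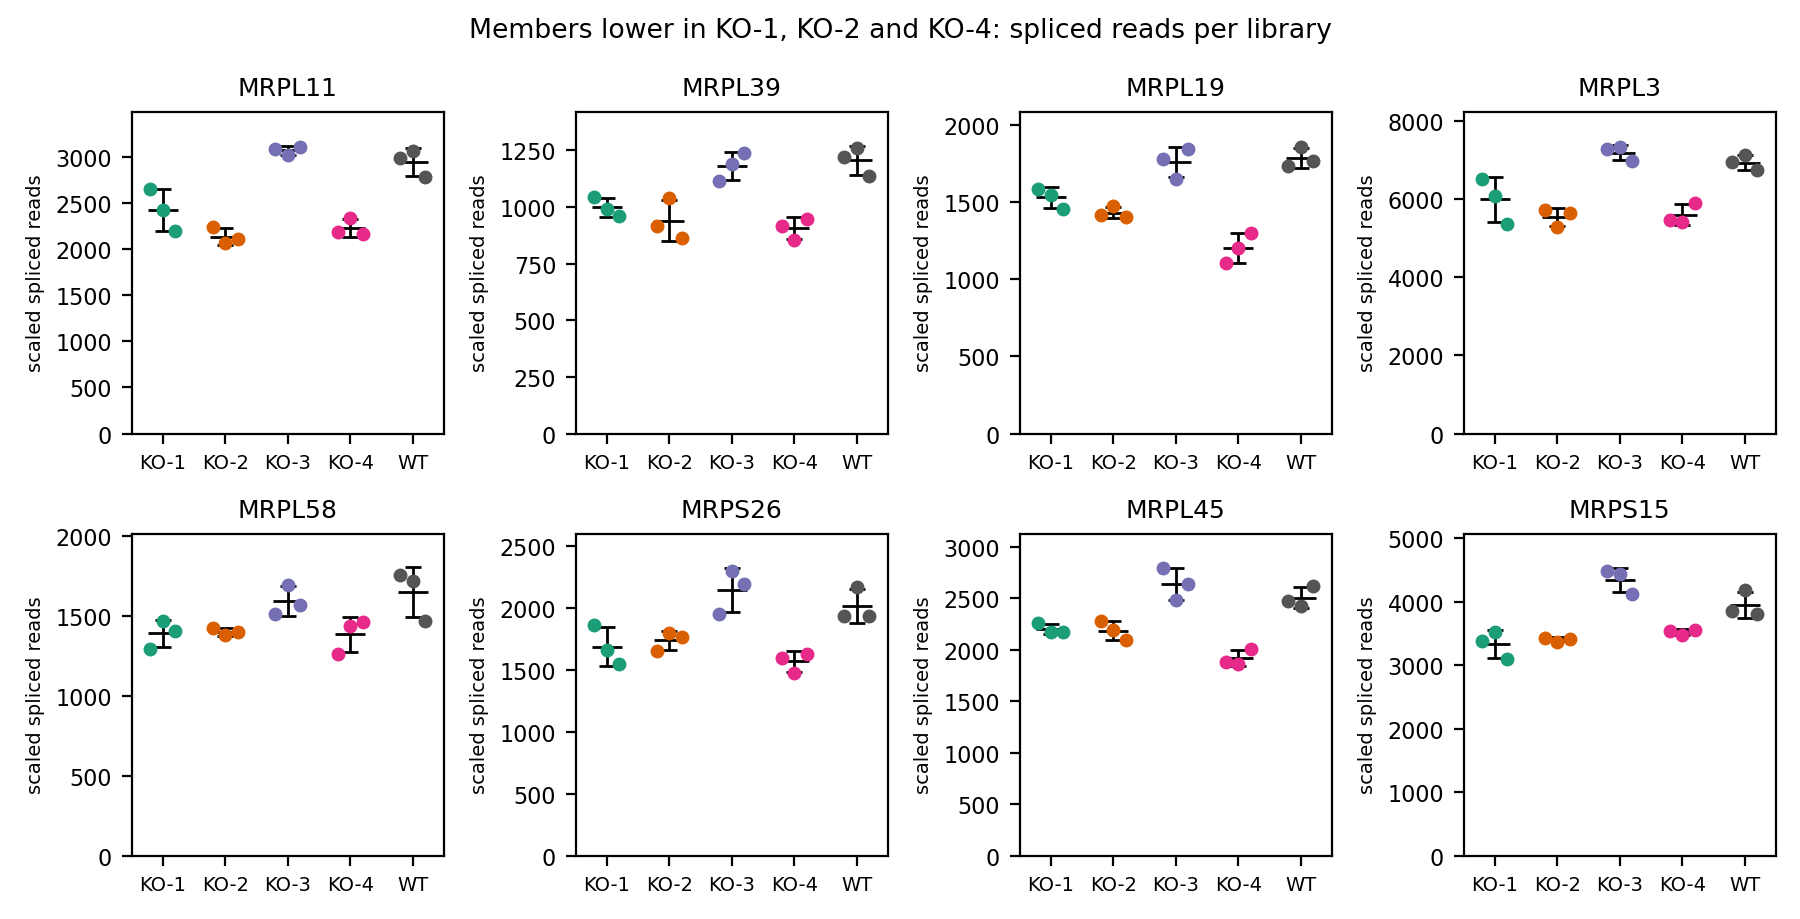
Scaled spliced reads of the 8 members lower in KO-1, KO-2 and KO-4, with 1 panel per gene and axes from 0. Coloured points are the 3 libraries of each clone and of WT, and black marks give the mean and SD. The KO-3 points overlap those of WT in every panel, as for MRPL11 at 3087, 3022 and 3114 against 2989, 3069 and 2781 in WT.

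The members that moved most were not the same in each clone. In KO-1 the largest falls were of MRPL10, which anchors the stalk, MRPL23, a protein at the exit of the tunnel for the nascent chain, and the mitochondria-specific MRPL38. MRPL10 had 1290, 1364 and 1262 in KO-1, against 1902, 1883 and 1739 in WT, a log2 fold change of -0.50 ± 0.06 (SE, limma adjusted p = 3.6e-06), and its values in KO-2, KO-3 and KO-4 averaged 1808 ± 47.6, 1961 ± 158 and 1690 ± 72.8. MRPL38 had 4185, 4343 and 3832 in KO-1, against 5373, 5217 and 5045 in WT (-0.34 ± 0.05, limma adjusted p = 2.5e-05). Of the 10 MRPL38 introns 7 also name another gene, so their reads cannot be given to MRPL38 alone. MRPL23 had 1668, 1551 and 1490 in KO-1, against 2227, 2180 and 1733 in WT (-0.38 ± 0.08, limma adjusted p = 0.00074). For all 3 genes the KO-1 libraries lay below every WT library, no other clone was called, and the difference among clones passed the limma test (adjusted p = 2.1e-07, 1.1e-06 and 0.00086 for MRPL10, MRPL38 and MRPL23).

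The 3 members higher in KO-1 were MRPL41, MRPS16 and MRPS18C. MRPL41, a mitochondria-specific protein of the large subunit, had 835, 977 and 902 in KO-1 and 850, 941 and 903 in KO-2, against 694, 833 and 697 in WT, so both clones lay above WT, at 0.29 ± 0.09 and 0.28 ± 0.09 (SE, limma adjusted p = 0.026 and 0.018). Its means in KO-3 and KO-4 were 727 ± 89.9 and 747 ± 59.1, against 741 ± 79.1 in WT (SD, n = 3 each). MRPS18C, a bacterial-type protein of the small subunit, had 2756, 2562 and 2229 in KO-1, against 2091, 2250 and 2054 in WT, and its lowest KO-1 library overlapped WT (0.23 ± 0.07, limma adjusted p = 0.019). The calls of MRPL41 in KO-1 and of MRPS18C were each lost in 4 of 6 settings that left out 1 library.

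In KO-2 the bacterial-type MRPL17 and the mitochondria-specific MRPL43 stood out beside MRPL41. MRPL43 had 1647, 1675 and 1584 in KO-2 and 1547, 1556 and 1511 in KO-3, against 1335, 1326 and 1405 in WT, above WT in every library of both clones (0.27 ± 0.06 and 0.18 ± 0.06, limma adjusted p = 0.001 and 0.027). MRPL17 had 1520, 1628 and 1506 in KO-2, against 1358, 1279 and 1226 in WT (0.27 ± 0.06, limma adjusted p = 0.0013). In KO-3 MRPL17 averaged 1428 ± 34.7, with all libraries above WT but an adjusted p of 0.071 by limma.

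In KO-3 MRPS25, a mitochondria-specific protein of the small subunit, was higher, with 731, 713 and 625, against 496, 528 and 567 in WT (0.38 ± 0.09, limma adjusted p = 0.0033). In the other clones MRPS25 averaged 559 ± 67.1 in KO-1, 604 ± 27.8 in KO-2 and, for KO-4, 484 ± 5.5 (SD, n = 3 each). In KO-4 MRPS27, a small-subunit protein with pentatricopeptide repeats, was lower, with 2181, 2203 and 2407, against 2941, 3224 and 2949 in WT (-0.42 ± 0.06, limma adjusted p = 1.4e-06), and MRPS27 was also lower in KO-1, at -0.18 ± 0.06. MRPL36, counted on few reads, had 122, 133 and 116 in KO-4, against 185, 182 and 152 in WT (-0.47 ± 0.13, limma adjusted p = 0.0053). The single member higher in KO-4 was MRPS6, with 643, 688 and 626, against 585, 568 and 556 in WT (0.19 ± 0.08, limma adjusted p = 0.038). Some MRPS6 introns also name AP000317.2, and with these left out its change was 0.08 and not called.

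Between clones, 5 members were called in opposite directions against WT. MRPL2, next to the peptidyl transferase centre, had 2277, 2315 and 2257 in KO-3 and 1501, 1654 and 1583 in KO-4, against 1880, 2103 and 1825 in WT, so KO-3 lay wholly above and KO-4 wholly below WT (0.24 ± 0.07 and -0.29 ± 0.07, limma adjusted p = 0.0091 and 0.00099). MRPL21 had 2129, 2264 and 2211 in KO-3 and 1537, 1455 and 1504 in KO-4, against 1861, 1878 and 1576 in WT, again with no overlap (0.32 ± 0.06 and -0.24 ± 0.06, limma adjusted p = 0.00066 and 0.0036). MRPS16, of the bacterial type, was higher in KO-1, with 1112, 1180 and 1257, and lower in KO-4, with 816, 852 and 876, against 970, 1014 and 921 in WT. MRPS9 was higher in KO-3, with 2938, 3100 and 3040, and lower in KO-1 and KO-2, with 2541, 2368 and 2395 and with 2392, 2409 and 2490, against 2592, 2688 and 2861 in WT. MRPL12, whose introns all name another gene too, was higher in KO-3, at 7311, 8070 and 8011, and lower in KO-4, at 6079, 5933 and 5933. In WT it had 6969, 7476 and 6691, and KO-3 overlapped WT. Over all genes, 13.8% of 9471 were called in opposite directions in this way, against 6.41% of the members. Scaled by total reads, 3 members were.

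**Figure D3:**
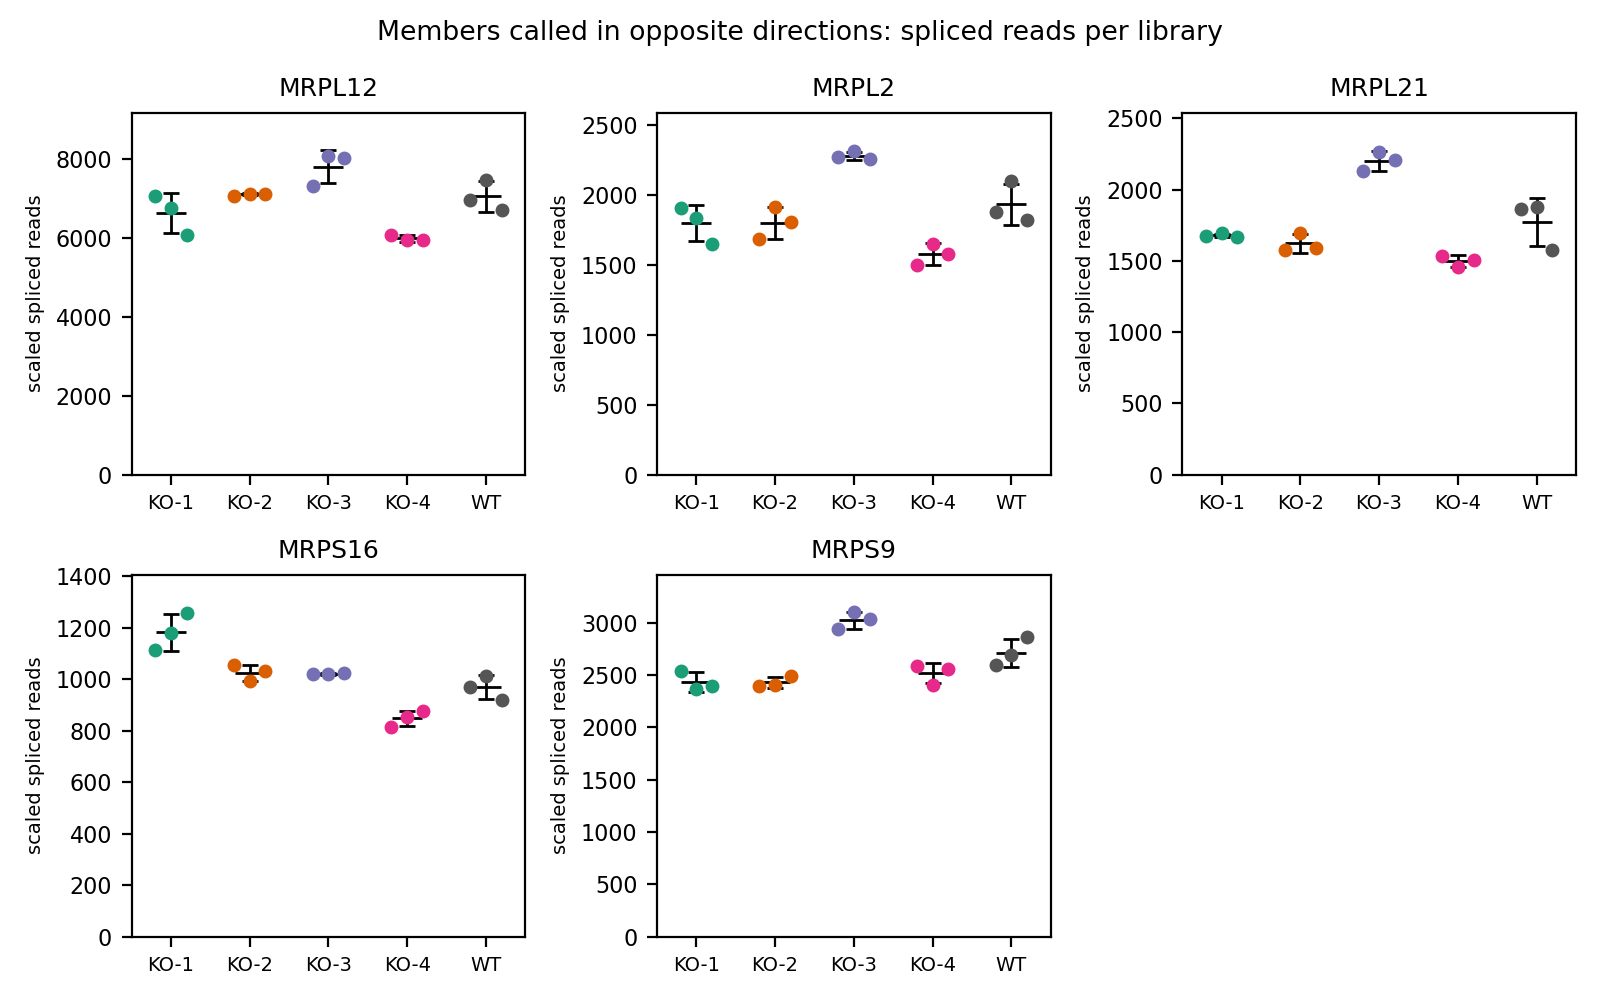
Scaled spliced reads of the 5 members called in opposite directions in different clones, with 1 panel per gene and axes from 0. Points are the 3 libraries of each clone and of WT, and black marks give the mean and SD. KO-3 holds the highest points of MRPL2 and MRPL21, and KO-4 the lowest.

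Other genes of mitochondrial translation were read from fixed lists. The mitoribosome proteins with other symbols, DAP3, PTCD3, AURKAIP1, CHCHD1 and GADD45GIP1, were all 5 lower in KO-4 (4 without the second WT library), and 1 of 5 was lower in KO-2, none in KO-1 or KO-3. CHCHD1 had 724, 881 and 771 in KO-4, against 1148, 988 and 1000 in WT (-0.40 ± 0.08, limma adjusted p = 0.00038), and DAP3, the GTP-binding protein of the small subunit, was lower by 8.46% in KO-2 and by 13.8% in KO-4. Of 25 assembly factors tested, 5, 3, 1 and 9 were lower and 2, 4, 4 and 1 higher in KO-1 to KO-4. That is 20%, 12%, 4% and 36% lower, beside 12.5%, 21.1%, 15.6% and 24.2% of all genes, so KO-2 and KO-3 lay below the share of all genes. Leaving out single libraries gave 1 to 7, 2 to 5, 1 to 2 and 6 to 8 lower and 0 to 2, 1 to 3, 2 to 4 and 1 higher, with 1 lower in KO-1 without the second WT library. MALSU1, which keeps immature large subunits from joining, had 1216, 1175 and 1075 in KO-1, 1167, 1238 and 1253 in KO-3 and 584, 641 and 593 in KO-4, against 1059, 981 and 814 in WT. It was higher in KO-1 and KO-3 and lower in KO-4 (0.29 ± 0.09, 0.37 ± 0.09 and -0.64 ± 0.09 on the log2 scale).

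The pseudouridine synthase RPUSD4, needed for the large ribosomal RNA, was 20.8% lower in KO-1, 23.4% lower in KO-2 and 28.3% lower in KO-4, with all of these libraries below WT, and RPUSD3 was higher by 14.0%, 11.9% and 13.4% in KO-1, KO-2 and KO-3. Among 15 translation factors tested, 12 were lower in KO-4 (10 without the second WT library) and 1 was higher, beside 4, 5 and 1 lower in KO-1, KO-2 and KO-3, of which leaving out the second WT library gave 2, 3 and 0. The shares lower were 26.7%, 33.3%, 6.67% and 80.0% in KO-1 to KO-4, beside 12.5%, 21.1%, 15.6% and 24.2% of all genes. GUF1, a ribosome-bound GTPase, had 1048, 904 and 905 in the KO-1 libraries, 814, 843 and 848 in those of KO-2, 1054, 1199 and 1070 in those of KO-3 and 863, 824 and 901 in those of KO-4, against 1267, 1297 and 1126 in WT, and was lower in KO-1, KO-2 and KO-4 by 22.6%, 32.0% and 29.7%. The initiation factor gene MTIF2 was lower in the same clones by 12.8%, 14.8% and 18.1%. OXA1L, which inserts new proteins into the inner membrane, was higher in KO-2 and KO-3 by 28.6% and 16.3% and lower in KO-4 by 7.97%. All of these calls are by limma at an adjusted p below 0.05.

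Member introns were mostly spliced out. Retention was the share of retained reads among both kinds, after each was divided by the length over which such a read can arise. Over the 410 introns the median retention in WT was 1.11%, against 1.27% over all 83066 introns, and 292 of the 410 (71.2%) lay below 5%. At the other end, 82 introns had over 50%, and 76 of these overlap an annotated exon of another transcript. An overlap of any length on either strand counted, so the exon may lie inside the intron, cross an end or span it. Exons of retained-intron forms did not count, and 36 of the 471 introns had such a form annotated. With an overlap, the median was 4.06% over 228 introns, and with none it was 0.391% over 182. In introns with an overlap, reads from that exon cannot be told apart from unspliced RNA. Introns of 200 bases or less had a median of 2.50% and those over 2000 bases 0.642%, against 1.89% and 0.895% over all introns of these lengths.

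Among the 163 introns with enough reads to be tested in a clone (a mean of 10 of each kind), the highest retention in WT was that of the first of 9 introns of a MRPL3 form (chr3:131501716-131502848, minus strand), at 97.3% ± 2.06, and of the third of 4 introns of a MRPL43 form (chr10:100983818-100986748, minus strand), at 97.3% ± 1.08 (SD, n = 3). The fourth intron of a MRPL35 form (chr2:86210614-86212425) stood at 93.0% ± 2.92, the fourth of MRPS7 (chr17:75265967-75266192) at 92.8% ± 0.899 and the first of MRPL51 (chr12:6492973-6493673) at 92.7% ± 3.77. Of the 308 introns that were not tested, having fewer reads of one kind, 54 stood above the MRPL51 intron and 39 of them above the MRPL3 intron. All 5 introns named overlap an annotated exon of their own gene. Those in MRPL43 and MRPL51 also overlap an exon on the other strand, of SEMA4G and NCAPD2. Of the 182 introns without an overlap, the highest was an intron of 97 bases in MRPL55 (chr1:228108138-228108234, minus strand), the third of 5, at 95.8% ± 0.843. It was chosen after its value was seen and was not tested. It rests on 48, 32 and 41 retained reads and 1 spliced read in each WT library. The coordinates are on hg38 and the exons are those of GENCODE v29.

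**Figure D4:**
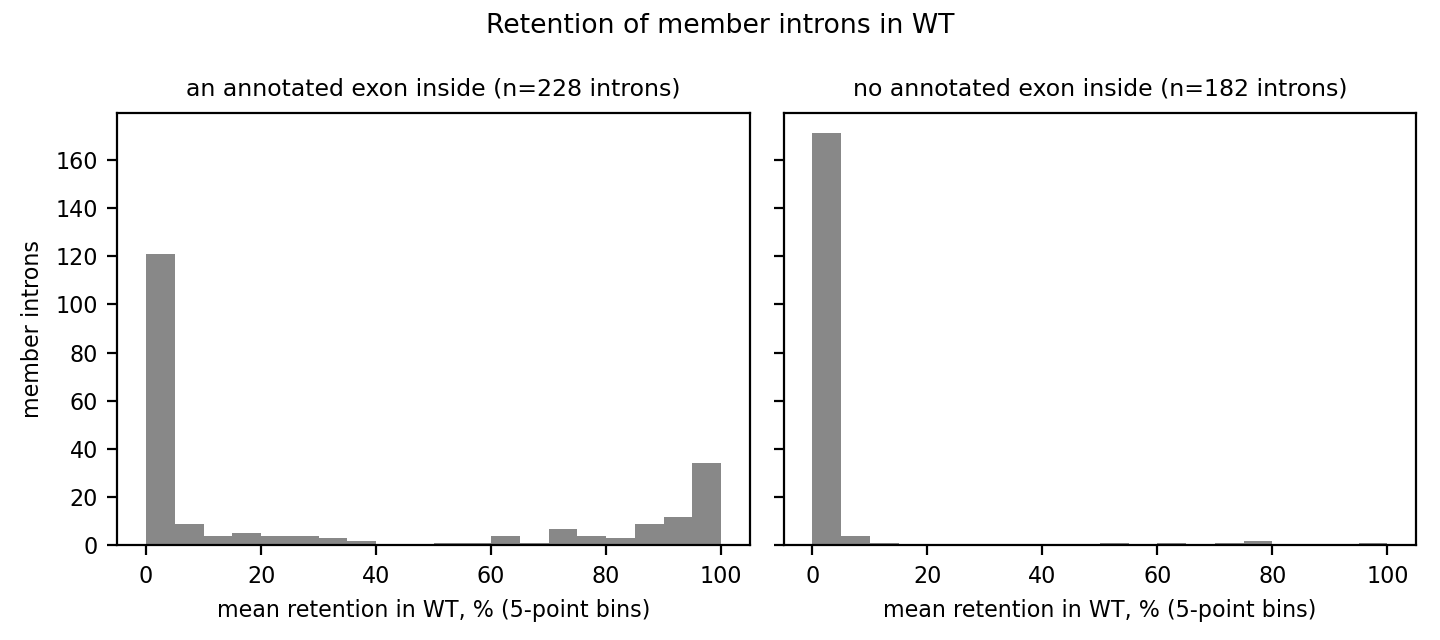
Mean retention in WT of the 410 member introns listed for all clones, counted in bins of 5 percentage points. The left panel, titled as an exon inside, holds the 228 introns that overlap an annotated exon of another transcript on either strand. The right panel holds the 182 without. Introns over 50% are found almost wholly in the left panel, with 76 of 82.

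For 198 of the 471 introns the first 8 bases could be read from exons of other annotated transcripts, and for 115 both ends. GT and AG ends were found in 113 of the 115, and none of the 198 starts matched the start of minor-class introns (NTATCCTT) with at most 1 mismatch. The ends of the introns called and of those 5 are shown as far as they could be read, from GENCODE v29 transcripts on hg38, 5′ to 3′ on the strand of the gene. Capitals mark the first and last 2 bases of the intron.
MRPS25 intron 1, first 8 bases: GTcagatg
MRPS25 intron 1, last 30 bases: tcctggaaggattctgttgctccttggcAG
MRPS6 intron 2, first 8 bases: GTaggtat
MRPS6 intron 2, last 30 bases: gatcttaattttgttgtgtttccattgtAG
MRPL43 intron 1, last 30 bases: tcatactgctcactgtcccgggtcgcttAG
MRPS2 intron 2, last 30 bases: gcgccaggacctctatctacttccccccAG
MRPS7 intron 4, first 8 bases: GTgagcta
MRPS7 intron 4, last 30 bases: gaaactcagggctgttttctcttcccttAG
MRPL43 intron 3, first 8 bases: GTgcaagc
MRPL43 intron 3, last 30 bases: cctcatcatcaccctcatcttcctctccAG
MRPL51 intron 1, first 8 bases: GTttcgcc
MRPL51 intron 1, last 30 bases: agattaattccctcccttccccatccccAG
MRPL35 intron 4, first 8 bases: GTacgttg
MRPL35 intron 4, last 30 bases: gatggattttcatttcttcgcacttctgAG
MRPL3 intron 1, first 8 bases: GTgagtcg

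Few member introns changed in retention. Introns whose retained reads, and likewise whose spliced reads, averaged 10 or more were tested in each clone with a quasi-binomial model, adjusted by Benjamini-Hochberg over all introns, and passed at an adjusted p below 0.05. In KO-1 none of 129 tested passed, in KO-2 4 of 152, in KO-3 none of 151 and in KO-4 1 of 149. Over all introns, 1.29%, 1.3%, 0.558% and 1.54% were higher and 0.175%, 0.304%, 0.155% and 0.429% lower in KO-1 to KO-4. At an unadjusted p below 0.05 there were 14 of 129, 22 of 152, 14 of 151 and 17 of 149, beside 10.8%, 11.9%, 8.25% and 13.8% of all introns. With both directions together the members' shares were near those of all introns. Of these member introns 13, 18, 5 and 17 were higher and 1, 4, 9 and 0 lower. The split by direction is not given for all introns. Among all member introns tested 69.0%, 67.8%, 49.0% and 71.1% had a change above 0, beside 62.2%, 58.5%, 52.3% and 64.7% of all introns. limma on the log2 odds called no member intron in any clone, with 8, 17, 11 and 14 at an unadjusted p below 0.05, beside 9.82%, 10.1%, 7.35% and 11.3% of all introns. The median change in log2 odds over member introns was 0.14, 0.16, -0.02 and 0.24, beside 0.13, 0.09, 0.02 and 0.16 over all introns tested. Summed over members, retention was 7.85% to 8.09% in the KO-1 libraries, 7.82% to 8.11% in those of KO-2, 7.23% to 7.40% in those of KO-3 and 7.83% to 8.03% in those of KO-4, against 7.15% to 7.60% in WT. Only KO-3 overlapped WT in this sum. Over all introns it was 7.18% to 7.24%, 7.10% to 7.45%, 6.98% to 7.18% and 7.25% to 7.35% in the clones, against 6.63% to 7.22% in WT.

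The first of 3 introns of MRPS26 (chr20:3046281-3046372, plus strand) is 92 bases long and overlaps no annotated exon, with retained-intron forms left out. Its retention was 3.34%, 3.41% and 6.04% in the KO-1 libraries, 5.12%, 4.48% and 5.43% in those of KO-2, 3.04%, 2.80% and 3.70% in those of KO-3 and 4.45%, 4.29% and 4.32% in those of KO-4, against 2.24%, 2.56% and 2.71% in WT. All 12 clone libraries lay above every WT library. The change in KO-2, 1.04 ± 0.29 in log2 odds (SE), passed the quasi-binomial test (adjusted p = 0.030), on 42, 45 and 61 retained reads in KO-2 against 23, 33 and 26 in WT. In KO-1, KO-3 and KO-4 it was 0.71 ± 0.34, 0.34 ± 0.30 and 0.83 ± 0.30, and none passed (adjusted p = 0.44, 0.85 and 0.14, quasi-binomial test). In KO-2 the spliced reads of MRPS26 were lower as well.

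The second of 4 introns of MRPS2 (chr9:135500754-135500997, plus strand), a bacterial-type gene of the small subunit, had 4.51%, 4.53% and 4.02% in KO-2, against 2.10%, 1.60% and 1.68% in WT (1.30 ± 0.35 in log2 odds, quasi-binomial adjusted p = 0.020). The other clones had means of 2.58% ± 0.896 in KO-1, 3.04% ± 1.23 in KO-3 and 3.01% ± 0.601 in KO-4 (SD, n = 3). The first of 3 introns of a MRPL43 form (chr10:100987197-100987312, minus strand) had 6.17%, 6.23% and 6.91% in KO-2, against 3.60%, 3.62% and 4.30% in WT (0.79 ± 0.22, quasi-binomial adjusted p = 0.038). The KO-2 libraries lay above every WT library in both introns. Both overlap an annotated exon of another form of their own gene, and whether that exon lies within the intron was not checked. MRPL43 is thus higher in KO-2 in spliced reads and in the retention of this intron.

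The other 2 introns were mostly retained in all groups and overlap exons of other genes. The intron of a non-coding MRPS25 form (chr3:15043023-15049707, minus strand) had 58.5%, 64.8% and 79.9% in KO-2, against 95.9%, 83.7% and 88.9% in WT, all below WT (-2.07 ± 0.56, quasi-binomial adjusted p = 0.011). It overlaps exons of MRPS25 and, on the other strand, of NR2C2. It rests on 38, 34 and 16 spliced reads in KO-2 and 3, 11 and 7 in WT. The second of 4 introns of a non-coding MRPS6 form (chr21:34102909-34103496, plus strand) overlaps an exon of SLC5A3. It had 92.7%, 91.9% and 92.1% in KO-4, against 81.6%, 62.0% and 83.5% in WT (1.98 ± 0.55, quasi-binomial adjusted p = 0.021). Reads of a gene that overlaps such an intron cannot be told apart from retained reads. After centring the changes on the median intron, MRPS25 kept its call and the MRPS26, MRPS2, MRPL43 and MRPS6 introns did not (adjusted p of 0.085, 0.065, 0.12 and 0.083, quasi-binomial test).

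**Figure D5:**
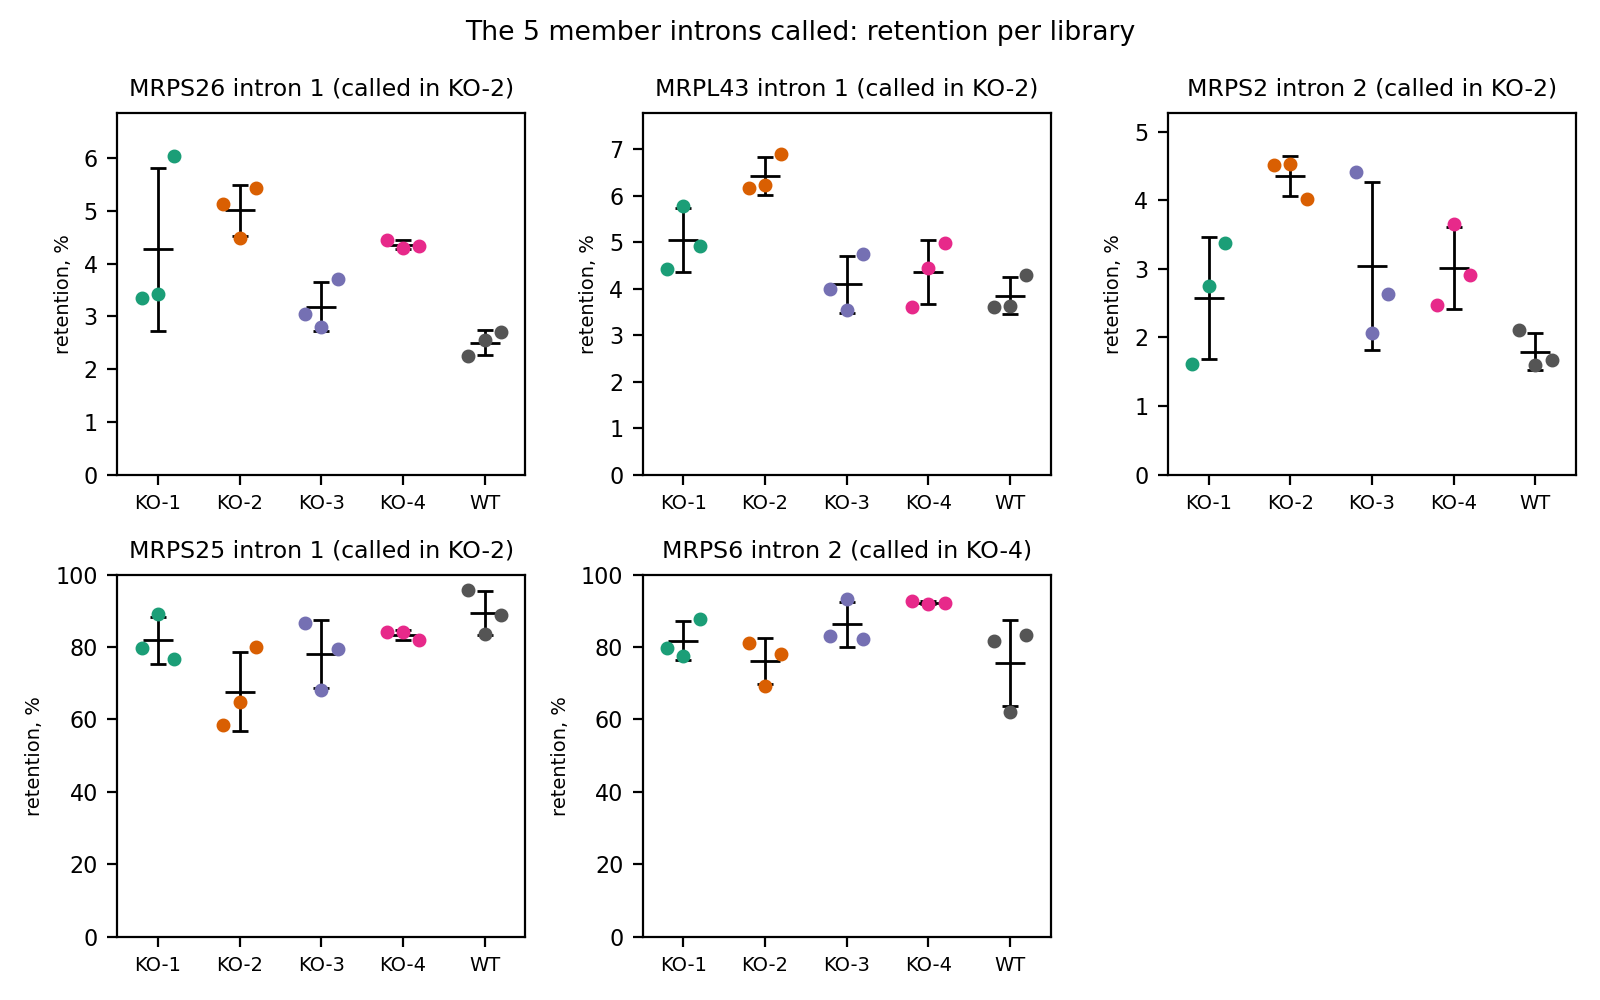
Retention in percent of the 5 member introns called in any clone, with 1 panel per intron and axes from 0. Points are the 3 libraries of each clone and of WT, and black marks give the mean and SD. In MRPS26 all 12 clone points lie above the 3 WT points, which end at 2.71%.

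With retained and spliced reads summed per gene, 65, 68, 66 and 68 members were tested in KO-1 to KO-4, and MRPL37 in KO-4 was the single call. Over all genes, 0.687%, 0.796%, 0.321% and 1.22% were higher and 0.102%, 0.184%, 0.0617% and 0.268% lower in these clones. At an unadjusted p below 0.05 there were 8, 8, 9 and 12 members, beside 11.5%, 11.7%, 8.03% and 15.6% of all genes. MRPL37, a mitochondria-specific protein of the large subunit, had 5.33%, 5.51% and 5.87% in KO-4, against 7.34%, 7.27% and 6.93% in WT (-0.39 ± 0.09 in log2 odds, quasi-binomial adjusted p = 0.045). Nearly all of its retained reads came from 1 of its 7 introns, an alternative first intron that overlaps an exon of another MRPL37 form. This intron had 369, 388 and 389 of them in KO-4 and 491, 618 and 440 in WT. The other 6 introns held 15, 23 and 19 retained reads in KO-4 and 8, 17 and 21 in WT. Reads of that form cannot be told apart from unspliced RNA in this sum.

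Every retention call depended on single libraries. The MRPS26, MRPS2, MRPL43 and MRPS25 calls in KO-2 were lost without the first WT library or without the first or second KO-2 library, the MRPS6 call without any one KO-4 library, and the MRPL37 call in 5 of 6 such settings. Without the third WT library, 4, 7, 1 and 4 member introns passed in KO-1 to KO-4. That library had the highest retention over all introns in WT, 7.22%. The share of all introns that passed without it is not given here, so these counts do not speak of members alone.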

How the data were processed

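For each clone the authors deposited 1 table that sets it against WT, with an intron on each line and the 3 libraries of a group in 1 cell. The submitters' processing notes name cutadapt 2.0, STAR 2.7.1a and the build hg38. How junction reads were counted, and with which test the deposited p-values were made, is not given in the sources used here. Per the file headers the authors deposited raw counts of retained and spliced junction reads, effective lengths, and retention as a fraction, which the counts and lengths gave again to within 0.0005. The deposited difference between the groups' mean retention, a signed score by the authors, was not used. The authors' deposited p-value and FDR per intron served for 1 alternative only. The sample titles are numbered, but the tables do not say which value belongs to which number, so libraries are called by their place in the list. Nothing says whether the counting used strand.

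Gene values are sums of spliced reads over the introns found in all 4 tables, an intron with several names counting for each. Genes with a mean of at least 50 were scaled to a common median ratio. The test was limma 3.58.1 on log2(value + 1) (trend, 15 libraries, R 4.3.3), so fold changes of low genes are slightly understated. A count model had been planned. It was replaced because the counts are stored as lists that the unit check does not take as counts, and planned count-model alternatives were not run. Retention was tested with a quasi-binomial model whose dispersion was moderated with limma and floored at 1, for the 6 libraries of each clone's table. p-values are two-sided, adjusted by Benjamini-Hochberg over all genes or introns tested, with a threshold of 0.05. Methods were tested on simulated data. Where 1 library is left out of the 15, spread is pooled over groups. Intervals and counts cover sequencing of these libraries, with no molecular identifiers.

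The genes named were the members lower or higher in 3 or more clones, the 3 largest rises and falls of each clone, all introns and genes called for retention, the 5 highest and lowest levels, the 5 highest WT retentions among introns tested and 3 genes per other list. The members, lists and rules were chosen with earlier results of these data known. Exons and intron numbers come from GENCODE v29, which held 99.6% of the introns listed, and promoters from RefSeq.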

Additional observations from a re-analysis of the deposited data

Results flagged for a closer look

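The following members were singled out because they were called in opposite directions in different clones and the difference among the 4 clones, a limma F test within the fit of all libraries, passed after Benjamini-Hochberg adjustment. The adjusted p was 4.37e-07 for MRPL21 and 3.28e-06 for MRPL2, both higher in KO-3 and lower in KO-4. It was 1.3e-05 for MRPS16, which was higher in KO-1 and lower in KO-4. It was 1.96e-05 for MRPL12, higher in KO-3 and lower in KO-4, whose introns all name another gene too. For MRPS9, higher in KO-3 and lower in KO-1 and KO-2, it was 2.65e-05. Over all genes 75.3% passed this test. It used the same values as the opposite calls, so it is no separate evidence for them. The comparisons share the WT libraries, and scaled by total reads 3 members had opposite calls.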

How the results depend on the processing

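Single-gene and single-intron results kept their direction in all 747 alternative values, of which 626 also kept their side of the threshold. For 5 of these values, from the authors' deposited FDR, the direction was that of the main fit and could not turn. Counting the top intron of each gene alone gave 8 members lower in KO-1, 3 higher in KO-3 with a median of 0.039, and in KO-4 none higher with a median of -0.19. The voom weights gave 7 higher in KO-2 and 1 lower in KO-3. Scaling by total reads turned the KO-3 median to -0.0033 with 3 higher and 5 lower, and gave a KO-4 median of -0.14. Fitting WT and the clone alone gave 7 higher in KO-3 and, like the introns naming a single gene, none (0) higher in KO-4. The voom weights, the scaling by total reads and a pseudocount of 10 were chosen after seeing the data. The cause of these shifts was not tested.

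For retention per intron, the authors' deposited FDR gave 1, 7 and 2 members in KO-1, KO-2 and KO-3. limma on the log2 odds gave 0 in KO-2 and KO-4, and 0 genes in KO-4. In KO-2 and KO-4 a mean of 50 counts gave 1 and 0 and centring gave 2 and 0, and no filter gave 1 in KO-3 and 3 in KO-4. The shares of all introns and genes that passed in these settings are not given here.

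Leaving out 1 library gave, in KO-1, 1 to 3 members higher, 10 to 20 lower and a median of -0.12 to -0.03. In KO-2 it gave 2 to 6 higher, 11 to 21 lower and a median of -0.10 to -0.028. In KO-3 it gave 6 to 9 higher, 0 to 1 lower and a median of 0.032 to 0.10. In KO-4 it gave 0 to 1 higher, 28 to 43 lower and a median of -0.21 to -0.14. For retention it gave 0 to 4, 0 to 7, 0 to 1 and 0 to 4 introns, and 0 to 1, 0 to 3, 0 to 1 and 0 to 5 genes, in KO-1 to KO-4. For these retention counts, too, the shares of all introns and genes are not given here. Between 59 and 68 members differed among the clones.

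No paired analysis was possible because the lists in the tables do not say which value belongs to which numbered sample. The planned count-model tests were not run. Most introns hold too few retained reads for a test of their own, and KO-1 is the shallowest.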
